A study of Mus musculus with 8 samples.

Results

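Interferons signal through paired receptor chains that carry Janus kinases, and the genes of that first step were examined in the mouse submandibular gland, a major salivary gland. The set held 9 of the 54838 genes counted. They were chosen by symbol as receptor chains, kinases and a STAT of one pathway, with no threshold on their values, and were mapped from Ensembl gene numbers. Ifnar1, Ifnar2, Ifngr2 and Il10rb lie inside the segment that is duplicated in Dp16 mice and have 3 copies there. Ifngr1, Jak1, Jak2, Tyk2 and Stat2 lie on other chromosomes and have 2 copies in both genotypes. All 9 passed the filter on low counts, with 1117 to 12245 reads per gene and library.

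Total RNA was sequenced from glands of male mice, with 4 Dp16 libraries and 4 wild-type (WT) libraries. Dp16 mice, stock B6.129S7-Dp(16Lipi-Zbtb21)1Yey/J, carry a germline duplication of mouse chromosome 16 from Lipi to Zbtb21, a region that matches much of human chromosome 21, and they serve as a model of Down syndrome. WT mice were C57BL/6J, the strain that the labels give for every library. Age, litter and the number of animals behind a library are not stated, so p-values measure the spread between these libraries, which may in part be technical. Libraries held 90790542 to 111805185 reads in genes for Dp16 and 97847453 to 115729892 for WT. Levels are in CPM, a gene's reads relative to all reads in genes, after TMM scaling, which sets libraries to a common scale by their bulk of genes. The gland's own products were abundant, with Mucl2 at 237766 CPM in Dp16 and 281486 CPM in WT. Dp16 replicate 3 stood apart in interferon-stimulated genes and lymphoid markers, and values without it are given beside part of the results. Results printed without such a value may also depend on that library. A gene was called at an adjusted p under 0.05 in the quasi-likelihood test of edgeR over 19358 genes.

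Type I interferons bind the Ifnar1 and Ifnar2 chains, which hold the kinases Tyk2 and Jak1. Interferon gamma binds Ifngr1 with its kinase Jak1 and Ifngr2 with its kinase Jak2. Il10rb, with its kinase Tyk2, is the chain shared by the receptors for interleukin 10, interleukin 22 and the lambda interferons. The kinases phosphorylate STAT proteins. Stat2 acts with Irf9 in the complex ISGF3, which binds a DNA element called the ISRE, and STAT dimers bind an element called the GAS. Salivary glands hold epithelial, stromal and resident immune cells, and these receptors are made by most cell types.

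The duplicated receptor genes sit on the plus strand of chromosome 16 with no other tested protein-coding gene between them, in the order Ifnar2, Il10rb, Ifnar1 and Ifngr2, within 193 kb. On GRCm38 with GENCODE M21 names, Ifnar2 spans chr16:91372783-91405589, Il10rb chr16:91406164-91425834, Ifnar1 chr16:91485238-91507441 and Ifngr2 chr16:91547072-91565623. The genes with 2 copies are spread over 4 chromosomes, with Ifngr1 at chr10:19591949-19610229, Stat2 at chr10:128270559-128292849, Jak1 at chr4:101152367-101265282, Jak2 at chr19:29251828-29313080 and Tyk2 at chr9:21104068-21131243.

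The bases before the RefSeq start sites are shown for the 3 receptor genes that edgeR called higher in Dp16 and for Stat2. Stat2 acts in the complex that binds the ISRE, and the upstream regions are set side by side. Each sequence holds 250 bases upstream of the first annotated base on the plus strand of GRCm38.p6. Capitals mark a match to the ISRE letters GAAANNGAAA or TTTCNNTTTC, which are the 2 strands of one motif, or to the GAS letters TTCNNNGAA, which read the same on both strands.
Ifnar2, chr16:91372533-91372782: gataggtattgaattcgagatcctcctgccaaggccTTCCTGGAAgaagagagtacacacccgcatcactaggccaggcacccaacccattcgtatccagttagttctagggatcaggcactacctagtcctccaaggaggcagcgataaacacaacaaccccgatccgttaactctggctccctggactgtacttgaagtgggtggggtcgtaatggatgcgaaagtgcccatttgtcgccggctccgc
Ifnar1, chr16:91484965-91485214: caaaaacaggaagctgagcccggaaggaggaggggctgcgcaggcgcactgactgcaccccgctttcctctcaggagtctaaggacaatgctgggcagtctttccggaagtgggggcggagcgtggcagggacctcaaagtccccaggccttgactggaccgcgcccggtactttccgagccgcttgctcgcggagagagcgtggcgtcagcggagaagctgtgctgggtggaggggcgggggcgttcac
Ifngr2, chr16:91546809-91547058: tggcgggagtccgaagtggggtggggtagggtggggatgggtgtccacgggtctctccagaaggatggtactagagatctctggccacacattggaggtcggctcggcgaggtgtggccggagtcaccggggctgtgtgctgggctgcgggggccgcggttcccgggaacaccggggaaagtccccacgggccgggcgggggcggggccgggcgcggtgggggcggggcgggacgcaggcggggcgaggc
Stat2, chr10:128270248-128270497: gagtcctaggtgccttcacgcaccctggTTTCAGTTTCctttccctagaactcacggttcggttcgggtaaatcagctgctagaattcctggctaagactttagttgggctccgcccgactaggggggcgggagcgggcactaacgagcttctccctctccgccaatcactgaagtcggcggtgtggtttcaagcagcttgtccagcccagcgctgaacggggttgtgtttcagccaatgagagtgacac
Stat2 had 1 ISRE match, TTTCAGTTTC at chr10:128270276-128270285, starting 222 bases before the start site. Ifnar2 had 1 GAS match, TTCCTGGAA at chr16:91372569-91372577, starting 214 bases before its start site. No match to either motif was found in the windows of Ifnar1, Ifngr2, Ifngr1, Jak1, Jak2 and Tyk2, and 8 of the 9 genes had a window. No match of one motif overlapped a match of the other. Of 32851 windows of the same length, 2.98% held an ISRE match and 7.02% a GAS match. Counted per gene over 27025 genes with a window, the shares were 3.46% for the ISRE and 8.13% for the GAS. Among 26 listed interferon-stimulated genes with a window, 12 (46.2%) held an ISRE match and 6 (23.1%) a GAS match. GC content ran from 54.0% in the Ifnar2 window to 74.0% in that of Ifngr2, so the 3 receptor windows differ in base content as well as in motifs.

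Of the 4 receptor genes of the duplication, 3 passed in edgeR as higher in Dp16 glands. Ifnar1, Ifnar2 and Ifngr2 were 1.46, 1.73 and 1.53 times as high as in WT, with no overlap between the groups (SE of 0.075, 0.072 and 0.082 on the log2 scale, n = 4 each). Il10rb was 1.32 times as high and did not pass. edgeR called 3 of the 4 duplicated receptor genes higher in Dp16, against 0.470% of all genes tested and 29.1% of the 127 tested genes of the duplicated segment. The Dp16 range lay wholly above the WT range for 3 of the 4, against 7.11% of all genes tested and 63.8% of the segment, so most genes of the segment share that feature. DESeq2 called all 4, against 5.89% of all genes higher in Dp16 and 82 of the 125 segment genes to which it gave an adjusted p. Limma-voom called 3, against 1.28% of all genes and 59 of the 127 genes of the segment. In bulk tissue, fewer cells of a type and less RNA per cell cannot be told apart.

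Ifnar2 encodes the chain that binds type I interferon with high affinity. It had 20.5, 20.1, 19.9 and 19.4 CPM in Dp16 libraries 1 to 4, against 12, 12.3, 11.1 and 11.0 CPM in WT libraries 1 to 4. The Dp16 libraries lay within about 1 CPM of each other, and the lowest of them stood well above the highest WT library. Ifnar2 averaged 20.0 ± 0.454 CPM in Dp16 and 11.6 ± 0.65 CPM in WT (SD, n = 4 each). The log2 fold change was 0.79 ± 0.072 (SE; edgeR quasi-likelihood adjusted p = 0.0122). Its 95% interval, 0.625 to 0.949, lay above 0.585, the log2 of the ratio of 3 copies to 2. Ifnar2 was the only one of the 4 duplicated receptor genes for which this was so.

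Ifnar1 encodes the partner chain that completes the type I receptor. Its levels were 45.4, 42.7, 44.9 and 50.0 CPM in Dp16, against 29.2, 32.1, 30.6 and 33.8 CPM in WT. Replicate 4 was the highest library in both groups, and the groups did not overlap. The means were 45.8 ± 3.05 CPM in Dp16 and 31.4 ± 1.97 CPM in WT (SD, n = 4 each), a log2 fold change of 0.54 ± 0.075 (SE; edgeR quasi-likelihood adjusted p = 0.0276). The 95% interval of 0.375 to 0.711 contained the copy ratio.

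Ifngr2 encodes the signalling chain of the interferon gamma receptor, which recruits Jak2. It had 20.2, 20.7, 21.2 and 20.7 CPM in Dp16, against 12.7, 12.6, 13.5 and 15.3 CPM in WT. The Dp16 libraries were nearly level with each other, while WT replicate 4 stood above the other WT libraries and below every Dp16 library. The means were 20.7 ± 0.411 CPM in Dp16 and 13.5 ± 1.26 CPM in WT (SD, n = 4 each). The log2 fold change was 0.61 ± 0.082 (SE; edgeR quasi-likelihood adjusted p = 0.0265), with a 95% interval of 0.426 to 0.795 that contained the copy ratio.

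Il10rb encodes the shared chain of the interleukin 10 family and lambda interferon receptors. It had 34.7, 34.2, 28.7 and 41.2 CPM in Dp16, against 24.6, 30.3, 24.4 and 25.6 CPM in WT. Dp16 replicate 3 was below WT replicate 2, so the groups overlapped. The means were 34.7 ± 5.12 CPM in Dp16 and 26.2 ± 2.8 CPM in WT (SD, n = 4 each). The log2 fold change of 0.40 ± 0.118 (SE) had a 95% interval of 0.140 to 0.669 and did not pass in edgeR (quasi-likelihood adjusted p = 0.101). DESeq2 called it at an adjusted p of 0.0482, and limma-voom did not (adjusted p = 0.0664).

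**Figure D1:**
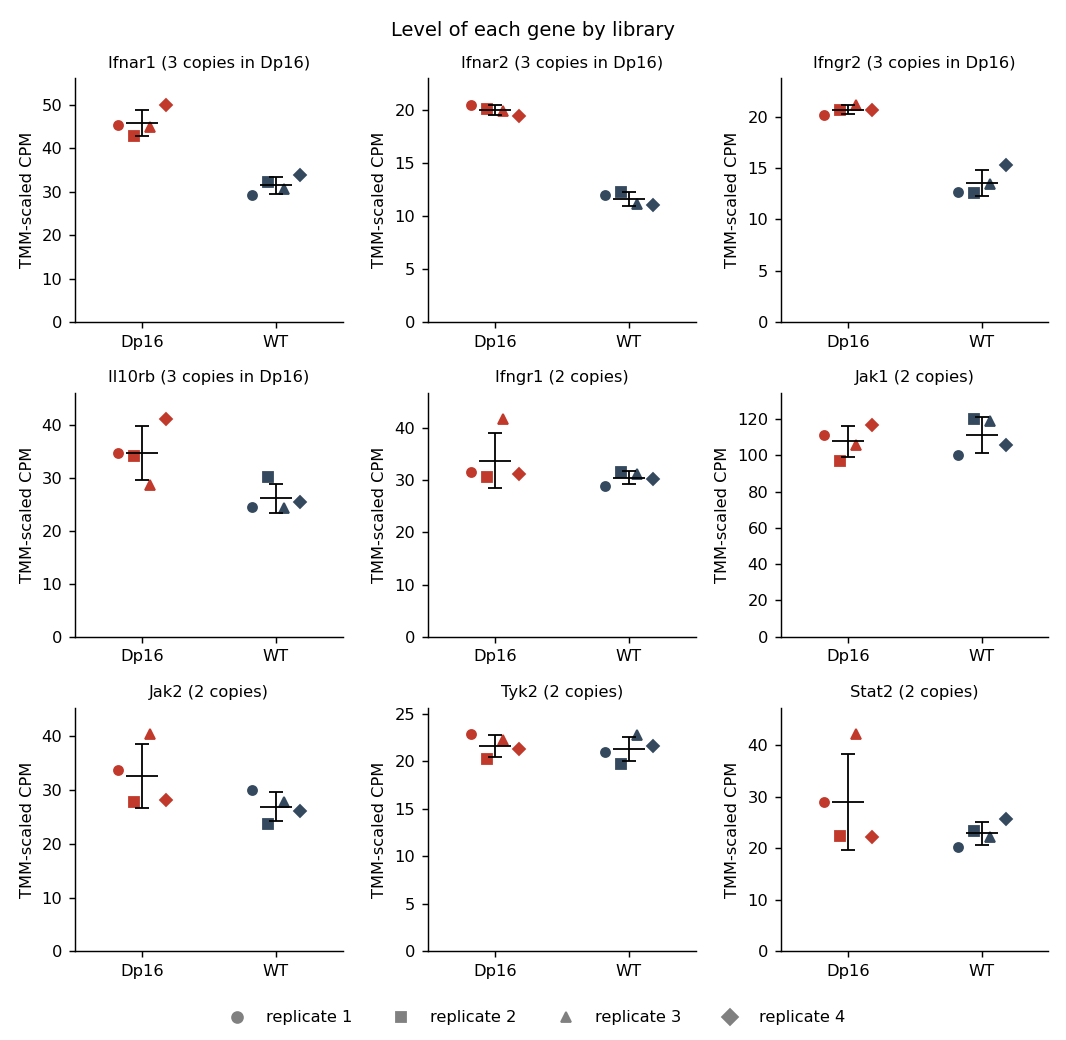
Level of each of the 9 genes in each library, in TMM-scaled CPM on axes that start at 0, with Dp16 (red) left of WT (blue) and a marker shape for each replicate number. Horizontal lines are means and bars are SD of 4 libraries. Ifnar1, Ifnar2 and Ifngr2 do not overlap between groups, and replicate 3 is the highest Dp16 library for Ifngr1, Jak2 and Stat2.

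Calls of the duplicated receptor genes depended on single libraries, while the fold changes of the 3 called genes moved little. edgeR called none of the 4 without Dp16 replicate 1 or without WT replicate 2, where it called 0 genes of the whole table. It called 1, Ifnar2, without Dp16 replicate 4, WT replicate 1 or WT replicate 3, and 2, Ifnar2 and Ifngr2, without WT replicate 4. Over these omissions and the other settings tried, log2 fold changes ranged from 0.49 to 0.58 for Ifnar1, 0.75 to 0.82 for Ifnar2 and 0.57 to 0.68 for Ifngr2. Il10rb moved more, from 0.30 without Dp16 replicate 4 to 0.49 without Dp16 replicate 3. The highest adjusted p over all settings was 0.102 for Ifnar1, 0.0641 for Ifnar2, 0.1 for Ifngr2 and 0.202 for Il10rb. The read-through gene Gm21970, on the same strand and with 0 reads in every library, covers 315 exonic bases of Ifnar2 (9.46%) and 569 of Il10rb (14.9%). HTSeq can leave reads on shared exons out as ambiguous, and the mode used is not given in the sources used here.

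Among the 88 tested protein-coding genes of the duplicated segment, the receptor genes were spread over the middle of the range of changes. In order of falling log2 fold change, Ifnar2 was at place 24, Ifngr2 at 41, Ifnar1 at 47 and Il10rb at 65. The segment's protein-coding genes had a median log2 fold change of 0.59 with quartiles of 0.36 and 0.79, and 84 of the 88 were positive.

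Within 500 kb on either side of the receptor run, 20 other genes were tested. All 20 were higher on average in Dp16, as were 121 of the 127 tested genes of the duplicated segment. The median log2 fold change of the 20 was 0.55. edgeR called 7 of the 20 higher in Dp16, against 0.470% of all genes tested and 29.1% of the segment. Of these 7, 6 were among the 15 neighbours that code for proteins. The called genes before Ifnar2 were Eva1c, a transmembrane protein gene (log2 fold change 1.07), and Synj1, which encodes the phosphoinositide phosphatase synaptojanin 1 (0.58). Beyond Ifngr2, Dnajc28 (0.96), Son, which encodes an RNA splicing cofactor (0.93), Cryzl1 (0.69) and Slc5a3, the myo-inositol transporter gene (0.73), rose as well. The edgeR adjusted p-values of these 6 ran from 0.0111 for Son to 0.0456 for Dnajc28. Eva1c, Dnajc28 and Slc5a3 did not pass without Dp16 replicate 3. The seventh was Gm15964, an antisense gene that overlaps Dnajc28 (1.47, edgeR adjusted p = 0.0428), and the counts of both are uncertain because the strand setting of the counting is not given. Slc5a3 and Mrps6 overlap on the same strand and Son and Donson overlap at their ends, so their counts are uncertain too. Tmem50b, the gene next to Ifngr2, had a log2 fold change of 0.25 (edgeR adjusted p = 0.195), and Gart, a purine synthesis enzyme gene, had 0.17 (0.291). Cfap298 (0.50), Paxbp1 (0.26), 4932438H23Rik (0.07), Donson (0.49), Itsn1 (0.53), Atp5o (0.14) and Mrps6 (0.47) did not pass either. The protein-coding neighbours thus ran from 0.07 to 1.07, and the receptor genes, from 0.40 to 0.79, lay inside that range.

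**Figure D2:**
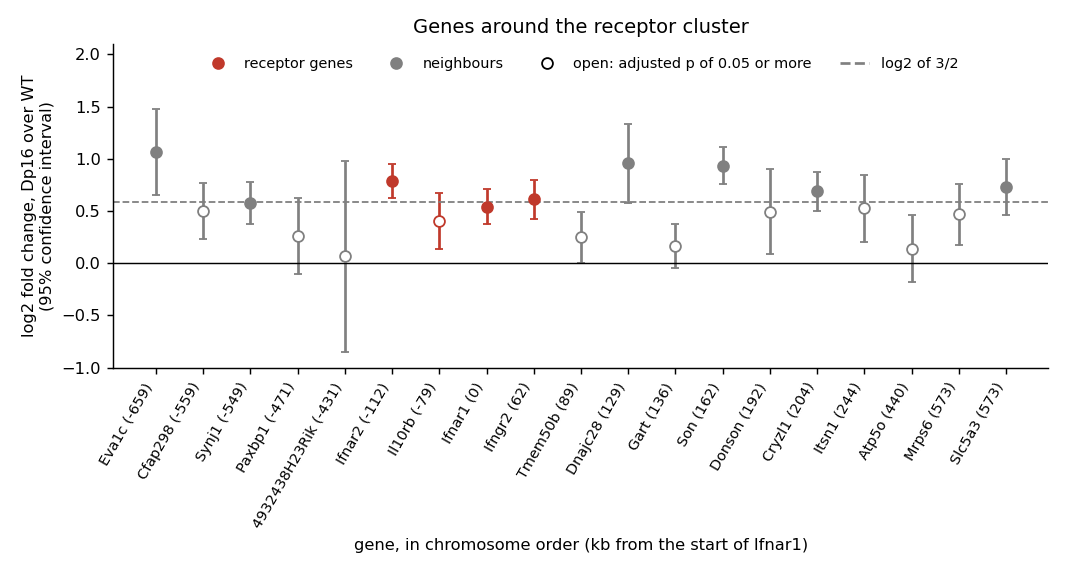
Log2 fold change, Dp16 over WT, of the 4 receptor genes (red) and the 15 tested protein-coding neighbours (grey), in chromosome order with the distance from the start of Ifnar1 in kb. Bars are 95% confidence intervals, open circles mark an edgeR adjusted p of 0.05 or more, and the dashed line is log2 of 3/2. Of the receptors, Il10rb is open, and every gene lies above 0.

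None of the 5 members with 2 copies passed. edgeR, DESeq2 and limma-voom each called 0 of the 5, and 0 of the 5 reached an unadjusted p under 0.05 in edgeR, against 24.6% of all genes. In either direction edgeR called 0.625% of all genes, DESeq2 10.3% and limma-voom 2.05%. No member of this group separated the genotypes, while 14.1% of all genes did in one direction or the other.

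Ifngr1, the chain that binds interferon gamma, had 31.6, 30.6, 41.7 and 31.1 CPM in Dp16, against 28.8, 31.6, 31.1 and 30.3 CPM in WT. Replicate 3 stood far above the other Dp16 libraries, which were close to the WT libraries. The log2 fold change was 0.15 with a 95% interval of -0.088 to 0.384 (edgeR quasi-likelihood adjusted p = 0.400), and 0.03 without Dp16 replicate 3.

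Jak1 encodes the kinase used by most of these receptors. It had 111, 96.8, 106 and 117 CPM in Dp16, against 100, 120, 119 and 106 CPM in WT. The ranges were nearly the same. Its log2 fold change of -0.05 had a 95% interval of -0.253 to 0.155 (edgeR quasi-likelihood adjusted p = 0.762), which leaves out the ratio of 3 copies to 2.

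Jak2, the kinase on the Ifngr2 chain, had 33.8, 27.8, 40.5 and 28.2 CPM in Dp16, against 30.1, 23.7, 27.8 and 26.2 CPM in WT. Replicate 3 was the highest Dp16 library here too, and the groups overlapped. The log2 fold change was 0.27 with a 95% interval of -0.019 to 0.567 (edgeR quasi-likelihood adjusted p = 0.227), and 0.15 without Dp16 replicate 3.

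Tyk2, the kinase on Ifnar1 and Il10rb, had the smallest change of the set, with 22.9, 20.2, 22.2 and 21.3 CPM in Dp16 against 21, 19.7, 22.8 and 21.6 CPM in WT. Its log2 fold change was 0.03 with a 95% interval of -0.142 to 0.192 (edgeR quasi-likelihood adjusted p = 0.856), and its sign turned without Dp16 replicate 1 or WT replicate 2. The antisense gene 1700084C06Rik shares 8.07% of the exonic bases of Tyk2 and had 1 to 19 reads per library, against 1891 to 2508 for Tyk2.

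Stat2, the STAT of the ISGF3 complex, varied most between Dp16 libraries. It had 29.0, 22.4, 42.2 and 22.2 CPM in Dp16, against 20.3, 23.4, 22.1 and 25.7 CPM in WT. Replicates 1 and 3 were above every WT library, while Dp16 replicates 2 and 4 lay within the WT range. The means were 29.0 ± 9.4 CPM in Dp16 and 22.9 ± 2.26 CPM in WT (SD, n = 4 each). The log2 fold change of 0.34 had a 95% interval of -0.100 to 0.781 (edgeR quasi-likelihood adjusted p = 0.305), and it was 0.10 without Dp16 replicate 3.

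**Figure D3:**
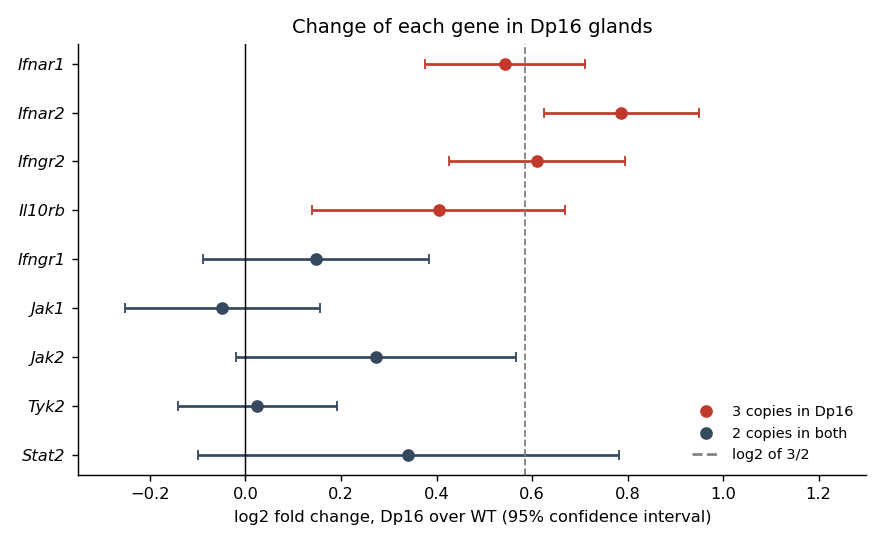
Log2 fold change, Dp16 over WT, of each gene with its 95% confidence interval from edgeR, for genes with 3 copies in Dp16 (red) and genes with 2 copies in both genotypes (blue). The solid line is no change and the dashed line is log2 of 3/2. The intervals of all 4 duplicated receptor genes lie above 0, that of Ifnar2 lies above the dashed line, and those of the other 5 genes contain 0.

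Genes were ranked among themselves on CPM per kb of exonic length. In Dp16 the mean levels were 14.9 for Jak1, 11.9 for Ifngr1, 9.11 for Il10rb, 7.7 for Ifnar1, 6.48 for Jak2, 6.0 for Ifnar2, 5.49 for Ifngr2, 4.89 for Stat2 and 3.16 CPM per kb for Tyk2. In WT they were 15.4 for Jak1, 10.7 for Ifngr1, 6.88 for Il10rb, 5.36 for Jak2, 5.29 for Ifnar1, 3.86 for Stat2, 3.6 for Ifngr2, 3.48 for Ifnar2 and 3.1 CPM per kb for Tyk2. Jak1 led and Tyk2 came last in both genotypes. In Dp16 the library ranges of neighbours in this order overlapped except between Ifnar2 and Ifngr2 and between Stat2 and Tyk2. In WT the overlapping neighbours were Jak2 with Ifnar1, and Stat2, Ifngr2, Ifnar2 and Tyk2 each with the next. The type I chains were unequal in both genotypes, with more Ifnar1 than Ifnar2 per kb.

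Ratios of counts within a library compare partners without any scaling between libraries. The ratio of Ifngr2 to Ifngr1, the pair that forms the interferon gamma receptor, was 0.638, 0.676, 0.508 and 0.667 in Dp16, against 0.441, 0.400, 0.434 and 0.507 in WT. Dp16 replicate 3, the library with the highest Ifngr1, was only just above WT replicate 4. The groups did not overlap, and the geometric means were 0.618 in Dp16 and 0.444 in WT (exact permutation p = 0.0286, the smallest that 35 splits of 4 and 4 libraries allow).

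Receptor chains were also set against the kinase each one holds. The ratio of Ifnar1 to Tyk2 was 1.98, 2.11, 2.02 and 2.35 in Dp16, against 1.39, 1.63, 1.34 and 1.56 in WT, with no overlap (exact permutation p = 0.0286). The ratio of Ifnar2 to Jak1 was 0.185, 0.207, 0.189 and 0.166 in Dp16, against 0.120, 0.102, 0.0929 and 0.103 in WT, again with no overlap (exact permutation p = 0.0286). These 2 ratios were thus higher in every Dp16 library than in any WT library. The ratio of Ifngr2 to Jak2 had a geometric mean of 0.643 in Dp16 and 0.503 in WT (exact permutation p = 0.0857), and that of Il10rb to Tyk2 had 1.59 in Dp16 and 1.23 in WT (exact permutation p = 0.0857), both with overlap. Within the type I receptor, the ratio of Ifnar2 to Ifnar1 was 0.437 in Dp16 and 0.369 in WT, with overlap (exact permutation p = 0.0571). After Benjamini-Hochberg adjustment over the 6 ratios, the exact p was 0.0571 for the 3 ratios without overlap and 0.0857 for the others, so none passed. At least 4 of the 6 would have had to reach the smallest p for any to pass.

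**Figure D4:**
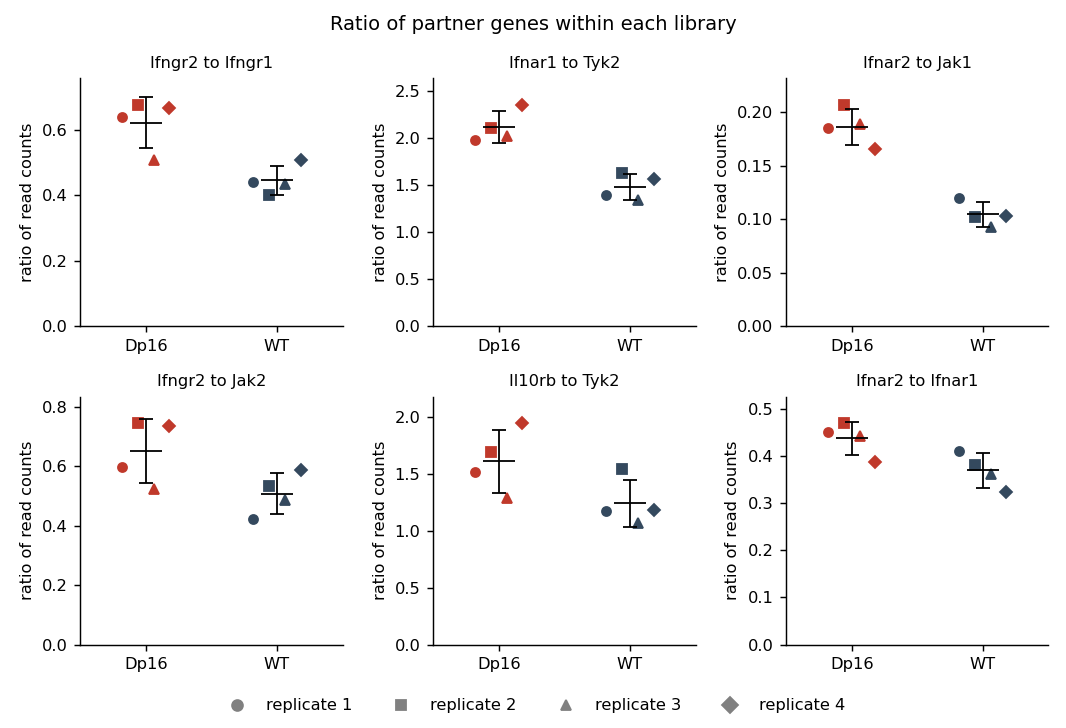
Ratio of raw read counts of partner genes within each library, with Dp16 (red) left of WT (blue), a marker shape for each replicate number, and the mean and SD of 4 libraries. All 6 ratios average higher in Dp16, and Ifngr2 to Ifngr1, Ifnar1 to Tyk2 and Ifnar2 to Jak1 do not overlap between groups.

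Messages for the ligands were at the edge of detection. None of the 27 listed ligand genes passed the filter on low counts, and 21 of them had 0 reads in all 8 libraries, including 18 of the 21 interferon genes. A count of 0 allows up to 3 reads in a library, which is 0.026 to 0.031 CPM in Dp16 and 0.026 to 0.0312 CPM in WT. Ifng, the interferon gamma gene, had 2, 4, 23 and 6 reads in Dp16, against 1, 2, 4 and 9 reads in WT, with the highest count in Dp16 replicate 3. Ifnb1 had 1 read in Dp16 and 0 in WT over all libraries, and Ifna2 had 0 in Dp16 and 1 in WT. Il10 had 41 reads in Dp16 and 34 in WT, Il6 had 17 in Dp16 and 6 in WT, and Il19 had 3 in Dp16 and 0 in WT. No ligand gene entered a test.

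The other chains of the class II cytokine receptor family, which includes the interferon receptors, gave 0 calls among 5 tested of 7 listed. Of these, 2 had an unadjusted p under 0.05 in edgeR, against 24.6% of all genes tested. On average 3 of the 5 were higher in Dp16, against 9890 of all 19358. The median log2 fold change was 0.09, and -0.03 without Dp16 replicate 3. DESeq2 called 2 higher, Il10ra and Il22ra2, against 5.89% of all genes, and limma-voom called 0. Ifnlr1, the lambda interferon chain that pairs with Il10rb, had a log2 fold change of 0.09 (edgeR adjusted p = 0.751), and -0.03 without Dp16 replicate 3. Il10ra, the interleukin 10 chain that pairs with Il10rb, had 0.88 (edgeR adjusted p = 0.135), Il22ra2, the soluble interleukin 22 binding chain, had 2.09 (0.0945) and F3, tissue factor, had -0.12 (0.702). The 3 values were 0.59 for Il10ra, 1.92 for Il22ra2 and -0.28 for F3 without Dp16 replicate 3. Il22ra2 was low, with 0.43 to 0.891 CPM in Dp16 and 0.00992 to 0.234 CPM in WT, where WT replicate 3 had 1 read.

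Of 32 chains of other receptors that signal through Janus kinases, 28 were tested and edgeR called 0. Of these, 11 had an unadjusted p under 0.05, against 24.6% of all genes tested. Of the 28, 25 were positive, against 9890 of all 19358, and the median was 0.51, beside 0.01 over all genes tested. Without Dp16 replicate 3 the median was 0.28. DESeq2 called 6 higher, against 5.89% of all genes, and 0 lower, and limma-voom called 0. The 4 with the smallest p were Il7r, the interleukin 7 chain of lymphocytes (1.52, edgeR adjusted p = 0.0745), Il12rb1 (2.30, 0.0905), Il9r (2.16, 0.0909) and Il12rb2 (0.90, 0.0986). Il12rb1 and Il12rb2 form the interleukin 12 receptor of T and natural killer cells. Leaving out Dp16 replicate 3 gave log2 fold changes of 1.74 for Il12rb1, 1.47 for Il9r and 0.96 for Il12rb2. Il12rb1, Il9r and Il12rb2 were at or below about 1 CPM in every library.

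The other JAK, STAT and ISGF3 genes gave 0 calls in edgeR among 8 tested, with 3 at an unadjusted p under 0.05. Of the 8, 6 were positive, with a median of 0.33 (0.23 without Dp16 replicate 3). Over all genes tested, 24.6% had an unadjusted p under 0.05 and 9890 of 19358 were positive. DESeq2 called 3 higher, against 5.89% of all genes, and limma-voom called 0. Irf9, the DNA-binding subunit of ISGF3, had 33.0, 25.3, 37.7 and 23.2 CPM in Dp16, against 22.0, 19.0, 18.8 and 21.8 CPM in WT (0.55, edgeR adjusted p = 0.0919). Every Dp16 library was above every WT library for Irf9, and Irf9 and Stat2 shared the same order at the top, with replicate 3 first and replicate 1 second among the Dp16 libraries. Stat4, which acts after interleukin 12, had a log2 fold change of 1.35 (edgeR adjusted p = 0.0729), Jak3, the kinase of the common gamma chain, had 0.59 (0.208) and Stat3 had -0.07 (0.695). Leaving out Dp16 replicate 3 gave 0.415 for Irf9, 1.13 for Stat4, 0.33 for Jak3 and -0.14 for Stat3 on the log2 scale.

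Negative regulators of the pathway gave 0 calls in edgeR among 20 tested, with 9 at an unadjusted p under 0.05. Of the 20, 8 were positive, and the median was -0.04. Over all genes tested, 24.6% had an unadjusted p under 0.05 and 9890 of 19358 were positive. DESeq2 called Ptprc, Usp18 and Socs2 higher and Socs7 and Cish lower, and limma-voom called Ptprc higher and Cish lower. In either direction DESeq2 called 10.3% of all genes and limma-voom 2.05%. Ptprc, which encodes the leukocyte phosphatase CD45, had 67.7, 40.0, 88.4 and 59.0 CPM in Dp16, against 32.1, 32.7, 33.5 and 26.5 CPM in WT (log2 fold change 1.03, edgeR adjusted p = 0.0589). Cish, a cytokine-induced inhibitor of the SOCS family, had 15.7, 16.6, 15.1 and 20.9 CPM in Dp16, against 23.2, 24.8, 21.8 and 25.8 CPM in WT (-0.49, edgeR adjusted p = 0.071). Neither overlapped between groups, and the limma-voom adjusted p was 0.035 for Ptprc and 0.0453 for Cish. Without Dp16 replicate 3 the log2 fold changes were 0.835 for Ptprc and -0.433 for Cish. Socs7 had -0.39 (edgeR adjusted p = 0.0609) and Socs2 had 0.42 (0.0931). Usp18, a deISGylase that binds Ifnar2 and damps type I signalling, had 7.94, 4.52, 17.6 and 4.58 CPM in Dp16, against 2.73, 3.56, 2.93 and 3.62 CPM in WT. Every Dp16 library was above WT, and replicate 3 was by far the highest (1.43, edgeR adjusted p = 0.099, and 0.82 without it). Socs1, which inhibits Jak1, Jak2 and Tyk2, had 1.02 (edgeR adjusted p = 0.432) at under 1 CPM in every library, and Socs3 had 0.40 (0.52). Without Dp16 replicate 3 the log2 fold change was 0.11 for Socs1 and -0.13 for Socs3, so both values rest on that library.

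Interferon-stimulated genes outside the duplication gave 0 calls in edgeR among 33 tested, although 26 had an unadjusted p under 0.05. Of the 33, 32 were positive, and the median log2 fold change was 1.06. Over all genes tested, 24.6% had an unadjusted p under 0.05, 9890 of 19358 were positive and the median was 0.01. DESeq2 called 14 of the 31 for which it gave an adjusted p, all higher in Dp16, and limma-voom called 1, Ciita. The shares of all genes called higher were 5.89% and 1.28%. Without Dp16 replicate 3, edgeR again called 0, 20 of the 33 had an unadjusted p under 0.05 and the median was 0.46. In that fit 3507 of all 19629 genes had an unadjusted p under 0.05, and the median over all genes was 0.00. The 4 with the smallest p were Ciita, the activator of MHC class II genes (1.17, edgeR adjusted p = 0.0553), the guanylate-binding protein genes Gbp4 (1.33, 0.0732) and Gbp7 (0.83, 0.0792), and the antiviral Oas1a (1.26, 0.0815). When Dp16 replicate 3 was left out, the log2 fold changes were 0.98 for Gbp4, 0.55 for Gbp7 and 0.84 for Oas1a. The mean log2 level of the 33 genes, set to 0 at the WT mean, was 0.66, 0.29, 1.91 and 0.46 in Dp16, against -0.18, 0.07, 0.06 and 0.05 in WT. Dp16 replicate 3 held the highest level of 31 of the 33 genes (93.9%), against 21.6% of all genes tested. Mx1 and Mx2, interferon-stimulated genes that are themselves inside the duplication, had log2 fold changes of 2.13 and 1.63 (edgeR adjusted p of 0.104 and 0.108). Mx2 is annotated as a polymorphic pseudogene. Mx1 had 3.78, 2.62, 21.1 and 3.68 CPM in Dp16, against 1.67, 1.86, 1.8 and 1.8 CPM in WT, and Mx2 had 4.39, 3.78, 15.7 and 3.29 CPM in Dp16, against 1.64, 2.03, 2.24 and 2.84 CPM in WT. Without Dp16 replicate 3 their log2 fold changes were 0.91 for Mx1 and 0.80 for Mx2. DESeq2 called Mx2 and gave Mx1 no p-value.

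Ifnar1, Ifnar2, Ifngr2 and Il10rb did not follow this order of libraries. In Dp16 replicates 1 to 4, log2 levels relative to the WT mean were 0.83, 0.79, 0.78 and 0.75 for Ifnar2, 0.58, 0.61, 0.65 and 0.62 for Ifngr2, and 0.53, 0.45, 0.52 and 0.67 for Ifnar1, while those of Stat2 were 0.35, -0.02, 0.89 and -0.04. Ifnar2 and Ifngr2 were nearly level across the Dp16 libraries, with Ifngr2 highest in replicate 3 by a small margin. Ifnar1 was highest in replicate 4, and Il10rb, at 28.7 CPM, was lowest in replicate 3.

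Markers of lymphoid cells were higher on average in Dp16. All 12 of 12 had a log2 fold change above 0, against 9890 of all 19358 genes tested. edgeR called 1 (Klrd1), DESeq2 12 and limma-voom 3, against 0.470%, 5.89% and 1.28% of all genes called higher. None of the 12 was at 0 in all libraries. Their summed level was 10.5 to 37.5 CPM in Dp16 and 5.14 to 8.46 CPM in WT. Dp16 replicate 3 was highest and replicate 2 lowest of the Dp16 libraries. The 9 myeloid markers summed to 194 to 329 CPM in Dp16 and 201 to 245 CPM in WT. Of the gland's own cells, 0 of 7 tested acinar markers and 0 of 5 granular duct markers averaged higher in Dp16. Of the other duct and basal markers 4 of 6 did, with a median of 0.07, and of the myoepithelial markers 1 of 3. Of all these gland markers edgeR called 1, the granular duct kallikrein gene Klk1, lower (-0.70, adjusted p = 0.0358), against 0.155% of all genes. For Muc19 and Dcpp1 the higher WT average rested on WT replicate 3, at 104 and 22.3 CPM. The other WT libraries had 0.312 to 4.32 CPM of Muc19 and 0.382 to 0.666 CPM of Dcpp1. Lpo was nearly level (-0.02). The acinar transcription factor gene Bhlha15 (-0.83) and the water channel gene Aqp5 (-0.66) did not pass (edgeR adjusted p = 0.0589 for each). Their groups did not overlap, unlike those of the other tested acinar markers. The 4 endothelial markers summed to 44.8 to 50.0 CPM in Dp16 and 32.2 to 41.6 CPM in WT. The 4 fibroblast markers summed to 393 to 550 CPM in Dp16 and 447 to 618 CPM in WT. Among them the collagen genes Col1a1 and Col1a2 had -0.69 and -0.41 (edgeR adjusted p of 0.0732 and 0.152). Pdgfra (0.04) and Dcn (0.02) were nearly level. The part of these cell types in the values of the receptor genes, their partners and the interferon-stimulated genes was not tested. Reads that overlap no counted feature made up 18.4% to 20.8% of reads in Dp16 and 13.8% to 15.9% in WT (exact permutation p = 0.0286), and their part in these values was not tested.

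**Figure D5:**
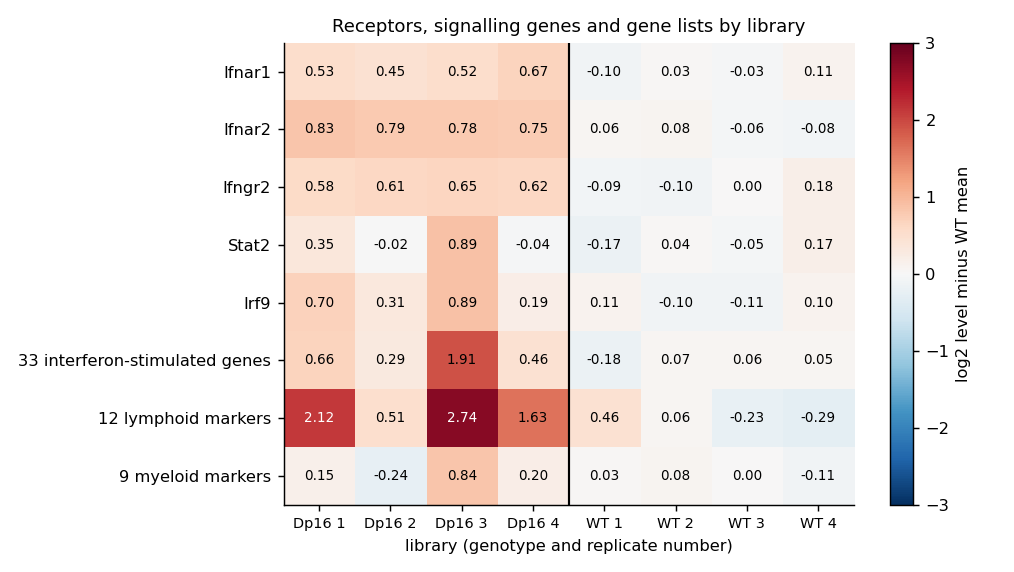
Log2 level minus the WT mean in each library, with Dp16 left of WT, for 3 receptor genes, Stat2 and Irf9, and the mean over 33 interferon-stimulated genes, 12 lymphoid markers and 9 myeloid markers. Numbers in the cells are the plotted values and red is above the WT mean. The rows of Ifnar2 and Ifngr2 are nearly even across Dp16 libraries, and that of Ifnar1 is highest in replicate 4. The rows from Stat2 to the myeloid markers are highest in Dp16 replicate 3, and Ifngr2 is highest there by a small margin.

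Genes most like 3 of the members were found by Pearson's r of log2 CPM over the 8 libraries after each group's mean was taken out, among 14441 protein-coding genes. Which members to show was not fixed beforehand, so these 3 may not stand for the rest. For Stat2 they were Usp18 (0.990), Rtp4 (0.986) and Adar (0.981), of which Usp18 and Rtp4 are on the lists described above. For Ifngr1 they were Adcyap1r1 (0.993), C1qb (0.987) and Ms4a8a (0.987), and C1qb is one of the myeloid markers. For Ifngr2 they were Mrpl23 (0.995), Il17b (0.994) and Pde9a (0.964). Differences in depth and cell makeup between the 8 libraries can move many genes together, and these values are a description without a test. Dp16 replicate 3 is the highest Dp16 library for both Stat2 and Ifngr1.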

How the data were processed

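The authors deposited raw counts of reads for each gene in 8 tables, 1 per library, from RNA prepared with a stranded total RNA kit after ribosomal RNA depletion, per the labels' protocols. GRCm38, STAR, HTSeq, FastQC and DESeq2 appear, without versions, in the submitters' processing notes. The annotation release and the counting's strand setting were not given in the sources used here. Each table held 54838 genes, of which 54809 matched GENCODE M21, and 5 rows that name no gene and took 58.1% to 65.4% of reads. Those rows were left out.

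Counts were fitted with edgeR 4.0.16 in R 4.3.3 (filterByExpr, TMM, quasi-likelihood F-test, two-sided, Benjamini-Hochberg over all genes tested). Standard errors and 95% intervals come from the same fit. DESeq2 1.42.0 and limma-voom (limma 3.58.1) were alternatives. Log2 CPM used a prior count of 2. Ratios were tested by exact permutation over 35 splits. Fits were tested on simulated data. Intervals cover the spread between these libraries. Promoter windows came from RefSeq on GRCm38.p6, and 8 of 9 members matched.

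The members and gene lists were chosen with earlier results of these data known. Named genes were all members, in each list up to 4 tested genes with the smallest p, every ligand with a read, 8 further pathway genes, all tested protein-coding neighbours within 500 kb, and the 3 genes most like a member. Gm15964 and the cell markers Klrd1, Mucl2, Klk1, Bhlha15, Aqp5, Muc19, Dcpp1, Lpo, Col1a1, Col1a2, Pdgfra and Dcn were named after their values were seen. An item that the rule takes is not reported here.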

Additional observations from a re-analysis of the deposited data

Results flagged for a closer look

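In 4 of 112 groups of 4 libraries examined, 1 library lay far from the other 3, and each time it was Dp16 replicate 3. Chance alone sets off this rule in about 5% of groups. The groups did not take in every listed gene, so this count does not describe the library as a whole. Among the members it was Ifngr1, at 41.7 CPM in Dp16 replicate 3, where the other Dp16 libraries had 30.6 to 31.6 CPM. Among the pathway genes, the signalling inhibitor gene Socs3 stood at 4.03 CPM in that library and at 1.3 to 1.7 CPM in the other Dp16 libraries. The interferon-stimulated genes Mx1, at 21.1 CPM, and Mx2, at 15.7 CPM, were high in it as well. The other Dp16 libraries had 2.62 to 3.78 CPM of Mx1 and 3.29 to 4.39 CPM of Mx2. The 9 myeloid markers also summed highest there, at 329 CPM. Outside the groups examined, Ifi44 had 39.6 CPM in Dp16 replicate 3 and 7.57 to 7.82 CPM in the other Dp16 libraries. That library was the highest for 31 of the 33 interferon-stimulated genes outside the duplication.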

How the results depend on the processing

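Fold changes of the 9 genes kept their direction and their side of the threshold in 119 of 135 combinations of gene and setting. Tyk2 turned sign, with log2 fold changes of -0.003 without Dp16 replicate 1 and -0.012 without WT replicate 2, in a range of -0.012 to 0.056 over omissions. Il10rb passed in DESeq2 (0.40, adjusted p = 0.0482). The 121 calls over all genes became 223 with no low-count filter, 1996 in DESeq2, 396 in limma-voom, 1308 at an adjusted p under 0.10, and 0 to 446 when single libraries were left out. Over the same omissions the duplicated receptor genes gave 0 to 3 calls. The 5 genes with 2 copies gave 0 calls under every setting run. The cause of these shifts was not tested.

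Replicate numbers are shared by both genotypes in the labels, with no word on what they mark. Deviations from group means correlated at 0.08 to 0.19 between same-numbered libraries, and Dp16 replicate 3 was nearer to WT replicate 1 (0.14) than to its own number. When replicate number entered as a block, edgeR called 776 genes, 46.4% of them higher in Dp16, against 75.2% of the 121. Paired sign flips kept the ratio differences at 0.479 for Ifngr2 to Ifngr1, 0.517 for Ifnar1 to Tyk2 and 0.837 for Ifnar2 to Jak1 (log2), with an exact p of 0.125, the smallest that 4 pairs allow. The block, added for the lists after seeing the data, called 2 other receptor chains, 3 negative regulators and 4 interferon-stimulated genes outside the duplication.

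Of the lists, DESeq2 called 2 class II chains, 6 other receptor chains, 3 JAK, STAT and ISGF3 genes, 5 negative regulators, 14 interferon-stimulated genes outside the duplication and 1 inside, where edgeR called 0 in each. Limma-voom called 2 negative regulators and 1 interferon-stimulated gene. Leaving out single libraries, also added after seeing the data, gave 0 to 3 calls among other receptor chains, 0 to 1 among JAK, STAT and ISGF3 genes, 0 to 1 among negative regulators and 0 to 3 among interferon-stimulated genes, each highest without Dp16 replicate 2. The ratio difference of Ifngr2 to Ifngr1 ran from 0.428 to 0.573 over omissions. None of the ligand genes passed the filter, so they have no test, and with 4 libraries a group no exact p could fall below 0.0286.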
